A study of Mus musculus with 30 samples.

Results

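The cytosolic ribosomal protein genes were taken as every measured gene whose symbol starts with Rpl or Rps followed by a digit, together with Rplp0, Rplp1, Rplp2 and Rpsa, leaving out the Rps6k kinases and symbols that contain -ps. This gave 79 of the 11463 genes tested, measured by 167 probes, and 48 of the 79 had more than 1 probe. By their names 41 encode proteins of the large subunit, 25 proteins of the small subunit and 3 the stalk proteins P0, P1 and P2. A further 9 are paralogs or retrocopies (Rpl7l1, Rpl22l1, Rpl36al, Rpl39l, Rps23rg1, Rps27l, Rps27rt, Rps3a3 and Rps4l), and 1, Rps19bp1, encodes a protein that binds Rps19 and is not part of the mature ribosome. Rps3a3 is listed as a pseudogene and Rps4l as a transcribed pseudogene in RefSeq. Rpl3l and Rps27a were not analysed here.

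RNA from the inguinal mammary gland of 19-week-old mice on a 129sv background was profiled on 30 2-colour arrays, 1 per gland. The groups were 9 Her2/Neu+/IFNAR1-/- glands, 6 Her2/Neu+ glands, 8 IFNAR1-/- glands and 7 WT glands. The Ifnar1 protein forms, with Ifnar2, the receptor of type I interferons, and Her2/Neu is a receptor tyrosine kinase oncogene. The labels name neither the promoter that drives Her2/Neu nor the allele of the oncogene or of the receptor, and they do not say whether a gland held a tumour. Every value is the log2 ratio of gland RNA (Cy5) over one universal mouse reference RNA (Cy3), so 0 means equal to the reference and a value compares 1 gene between arrays, not 1 gene with another. The scale stops at 6 in both directions, which is 64-fold. Arrays are named by group and sample number.

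The tissue label was checked against marker lists. In WT glands the median of 8 adipocyte genes was 5.99 and that of 4 endothelial genes was 5.40, near the top of the scale, and Adipoq stood at the limit of 6 on every array. The median was 2.34 for 11 luminal epithelial genes and 1.29 for 7 basal genes, against -3.07 for 10 proliferation genes. The glands are bulk tissue, in which fewer cells of a type and less RNA per cell cannot be told apart. Each array held 17485 to 20801 values. Spot intensities are not part of the table, which leaves the signal over background unknown, and precision is set by the number of arrays.

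Each ribosome carries its proteins in near equal numbers. Vertebrate ribosomal protein mRNAs start with a C followed by a run of pyrimidines, the 5′ terminal oligopyrimidine (TOP) motif, through which mTOR signalling controls their translation. The mRNAs are abundant in nearly all cells, and their production is raised in growing and dividing cells.

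The start sites of the genes were examined because the TOP motif is the feature that they share beyond their names. RefSeq promoter windows on GRCm38.p6, from 250 bases before to 50 bases after the start, were found for 63 of the 79 genes, and 55 of the 69 large subunit, small subunit and stalk genes had 65 windows. A run of at least 8 C or T that begins with C, on the gene's strand and within 20 bases before to 30 bases after the start, was found in 47.7% of the 65 windows and in 14.9% of 32851 windows of all genes. A run of at least 8 A or G in the same stretch, with no condition on its first letter, was found in 9.23% of the 65 windows and in 21.9% of all. It is a looser pattern than the first, so it is not a matched control. A C followed by at least 4 more C or T exactly at the annotated start was found in 13 of the 65 windows and in 2.51% of all. The 6 sequences below are of genes with a run and show long and short ones, printed in the gene's direction with the run in capitals.
Rpl27a, chr7:109519175-109519224, + strand: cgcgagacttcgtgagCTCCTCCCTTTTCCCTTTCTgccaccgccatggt
Rpl7a, chr2:26910787-26910836, + strand: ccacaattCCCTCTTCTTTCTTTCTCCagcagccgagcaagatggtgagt
Rpl15, chr14:18270957-18271006, - strand: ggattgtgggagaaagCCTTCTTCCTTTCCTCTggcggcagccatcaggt
Rps6, chr4:86857338-86857387, - strand: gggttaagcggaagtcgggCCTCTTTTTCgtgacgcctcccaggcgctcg
Rplp2, chr7:141447631-141447680, + strand: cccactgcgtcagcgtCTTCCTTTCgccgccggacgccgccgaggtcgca
Rps27, chr3:90213619-90213668, - strand: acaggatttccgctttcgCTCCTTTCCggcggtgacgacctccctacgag
The next 3 belong to genes whose values are described below and have no such run in the same 50 bases.
Rpsa, chr9:120127746-120127795, + strand: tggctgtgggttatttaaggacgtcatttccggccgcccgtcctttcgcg
Rpl24, chr16:55966255-55966304, + strand: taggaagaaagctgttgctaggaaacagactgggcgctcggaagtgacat
Rpl37a, chr1:72711240-72711289, + strand: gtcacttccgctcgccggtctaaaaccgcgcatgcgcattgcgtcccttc
The absence of a run says only that these letters are not in this window.

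Promoter motifs were counted over the whole windows, on both strands. CCGGAAG, the core that ETS factors such as GABP recognise, was present in 38.5% of the 65 windows and in 8.86% of all. GGGCGG, the GC box, was present in 60.0% and in 35.7%, and TGACGT, part of the CRE element, in 18.5% and in 7.51%. TATAAA was present in 9.23% of the 65 windows and in 13.6% of all. The 78 genes with a chromosome in RefSeq lay on 19 chromosomes, with the most on chromosomes 7 (10 genes), 9 (8 genes) and 17 (7 genes).

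In glands of all genotypes most ribosomal protein mRNAs lay below the reference RNA. The group mean was below 0 for 58 of 79 genes in Her2/Neu+/IFNAR1-/-, 64 in Her2/Neu+, 59 in IFNAR1-/- and 56 in WT glands, against 44.7%, 48.7%, 51.4% and 50.3% of all genes tested. The median level of the 79 genes was -0.45 in Her2/Neu+/IFNAR1-/-, -0.71 in Her2/Neu+, -0.42 in IFNAR1-/- and -0.47 in WT glands. The medians of all genes were 0.10, 0.03, -0.03 and 0.00 in the same order of groups.

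By role, the median in WT glands was -0.63 over the large subunit genes, of which 32 of 41 lay below the reference, and -0.26 over the small subunit genes, of which 16 of 25 did. Over the 3 stalk genes the median was -0.13. The 69 large subunit, small subunit and stalk genes spanned -1.47 to 1.12, from Rpl14 at the low end, followed by the small subunit gene Rps2 at -1.32, to Rps14 at the high end, with Rplp2 at 0.89.

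Of the 9 paralogs and retrocopies, only Rpl39l and Rps4l lay outside the range of the large subunit, small subunit and stalk genes. The WT means of the others lay within it, from -0.64 for Rps3a3 to 0.59 for Rps23rg1. Rpl39l, a paralog of Rpl39 that is known for its expression in testis, had the lowest WT mean of all 79, -3.22 ± 1.07 (SD, n = 7), against -0.43 ± 0.21 for Rpl39. Rps4l had the highest, 4.93 ± 1.06, against -0.61 ± 0.24 for the X-linked Rps4x, and 9 of its 27 values stood at the upper limit of the scale. These ratios are each relative to the content of the reference and do not rank the mRNAs against each other.

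The pair Rpl22 and Rpl22l1 encodes paralogs that can replace each other in the large subunit. Rpl22 averaged -0.67 ± 0.22, -0.71 ± 0.42, -0.40 ± 0.27 and -0.63 ± 0.21 in Her2/Neu+/IFNAR1-/-, Her2/Neu+, IFNAR1-/- and WT glands (SD, n = 9, 6, 8 and 7). Rpl22l1 averaged -0.43 ± 0.47, -0.93 ± 0.30, -0.55 ± 0.21 and -0.35 ± 0.29 in the same groups. The order of the groups thus differed between both genes, and within each gene the ranges of all groups overlapped. Rpl36a and its retrocopy Rpl36al stood at -0.87 ± 0.22 and 0.24 ± 0.28 in WT glands, and Rps27 and its p53-induced paralog Rps27l at 0.07 ± 0.33 and -0.57 ± 0.49.

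**Figure D1:**
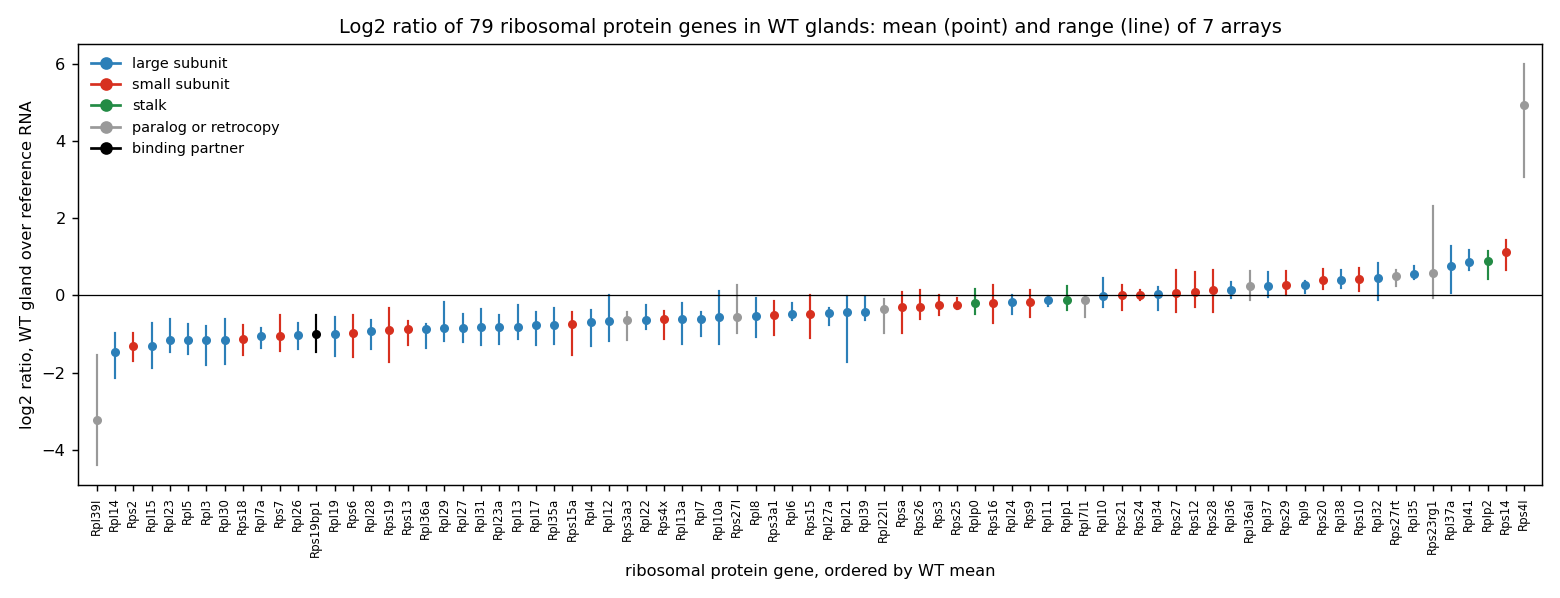
Mean log2 ratio of gland over reference RNA in the 7 WT glands for each of the 79 ribosomal protein genes, ordered by the mean and coloured by role. Points are means and lines span the lowest to the highest gland. The large subunit, small subunit and stalk genes lie between -1.47 and 1.12, while Rpl39l at -3.22 and Rps4l at 4.93 lie outside.

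The values of ribosomal protein genes varied less between glands than those of all genes tested. The median SD over the 30 arrays was 0.44 for the 79 genes and 0.74 for all genes tested, and 72 of the 79 lay below the second value. A gene value is the mean of its probes, and 48 of the 79 genes had more than 1 probe, against 2606 of all 11463. The part of probe number, and of the repeated and blank values described next, in the lower SD was not tested. Rpl27a (0.19), Rpl9 (0.19) and Rpl34 (0.20) varied least. Rpl21 (1.6), Rps4l (1.30) and Rpl39l (1.26) varied most.

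Many values in the table are repeated to the last digit within an array, and how they were made is not stated in the sources used here. They make up 4.59% of the ribosomal protein probe values and 33.9% of all values. They were 84.6% of the values of Rpl7l1, 66.7% of those of Rpl21 and 66.7% of those of Rps23rg1, so most values of these 3 genes are shared with other probes of the array. Blank values were 0.339% of the ribosomal protein values and 5.88% of all.

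On some arrays many ribosomal protein probes shared 1 value. A window of 0.03 log2 units, placed on each array where it held the most ribosomal protein probes, contained 14 to 46 of the 167 probes on 8 arrays and 6 to 11 on the other 22. The 8 arrays were Her2/Neu+/IFNAR1-/- 106 with 20 probes, Her2/Neu+ 114, 118 and 120 with 14, 25 and 46, IFNAR1-/- 44, 46 and 47 with 21, 33 and 16, and WT 60 with 29. Only 1 to 5 ribosomal protein probes lay above the window on these arrays, so the shared value was near the top of the family. IFNAR1-/- 41, among the other 22, also had its window near the top. It began at 0.69 and held 11 probes, with 1 above it. On Her2/Neu+ 120 the window began at 0.19 and held probes of 33 genes, among them Rpl37a, Rplp2, Rps14 and Rps27, each of which stands at 0.19. The same window held 1.27% of the other probes of that array, and the equal windows just below and above it held 1.09% and 0.87%.

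The shared value touches the genes described next. Rps14, Rpl9, Rps16 and Rps28 had a probe in the window on all 8 arrays, Rpl37a on 7, Rplp0 on 6, Rpsa, Rpl24 and Rps27 on 4 each, and 43 of the 79 genes on none. Where several genes have 1 value the array does not order them. For a gene with 1 probe, such as Rps14, a difference between these arrays is the difference between the shared values. A gene with several probes is their mean and can lie elsewhere, as Rpl9, with 2 probes, does at -0.10 on Her2/Neu+ 120. The window and the limit of 14 probes were chosen after the values had been seen, and the cause of the shared value was not tested.

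No ribosomal protein gene passed an adjusted p under 0.05 in any of the 5 comparisons fitted over the 30 arrays (limma, Benjamini-Hochberg over all 11463 genes). Her2/Neu+/IFNAR1-/- glands were set against Her2/Neu+ and against IFNAR1-/- glands, and Her2/Neu+ and IFNAR1-/- glands each against WT glands. The interaction is the change that receptor loss gave in Her2/Neu+ glands less the change it gave in glands lacking the oncogene. Comparisons that name the same group share its arrays. For none of the 79 genes did all glands of one group lie outside the range of the other group in any of the 4 pairwise comparisons. The share of all genes that lay wholly lower was 0.0611% to 0.192%, and wholly higher 0.0698% to 0.340%.

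In Her2/Neu+ minus WT the median change of the ribosomal protein genes was -0.32, against -0.02 for all genes, and it rested on 2 of the 6 Her2/Neu+ glands. Without Her2/Neu+ 119 it was -0.17, without 114 and 119 it was -0.03, and no single gene passed the test in any of these fits. The change was below 0 for 61 of 79 genes over all arrays. At an unadjusted p under 0.05, 20 of the 79 (25.3%) were lower and 0 higher, against 6.69% of all genes lower and 5.37% higher. The adjusted test called 0 of the 79 and 0.131% of all genes. The median was -0.26 over the large subunit genes, -0.48 over the small subunit genes, -0.43 over the stalk genes and -0.23 over the paralogs.

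The genes with the smallest p in this comparison were Rps14, a protein of the small subunit platform, and Rpl37a of the large subunit. Rps14 lay at -0.17, 0.47 and 1.07 (lowest, median and highest) in Her2/Neu+ glands, against 0.66, 1.23 and 1.43 in WT glands. Its change was -0.68 ± 0.21 (SE, limma, adjusted p = 0.162). Rpl37a lay at -1.0, 0.14 and 0.58 in Her2/Neu+ glands, against 0.05, 0.70 and 1.29 in WT glands, a change of -0.78 ± 0.24 (adjusted p = 0.162). The lowest Her2/Neu+ array was the same one, Her2/Neu+ 119, for both genes, and the groups overlapped. On Her2/Neu+ 114, 118 and 120 the Rps14 probe stood at the shared values described above. The single Rpl37a probe did so on Her2/Neu+ 118 and 120, and both probes did on WT 60.

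Rpsa, the small subunit protein also known as the laminin receptor precursor, lay at -1.82, -0.86 and -0.22 in Her2/Neu+ glands, against -0.97, -0.17 and 0.09 in WT glands. The change was -0.66 ± 0.23 (limma, adjusted p = 0.211). Rpl24, which bridges both subunits, lay at -2.17, -0.54 and -0.27 in Her2/Neu+ glands, against -0.48, -0.17 and 0.02 in WT glands, a change of -0.64 ± 0.22 (adjusted p = 0.221). For both genes the 2 lowest Her2/Neu+ arrays were 119 and 114, below every WT array. Her2/Neu+ 115 also lay below every WT array, at -1.08 for Rpsa and -0.68 for Rpl24. Rps26 (0.30 ± 0.18), Rps19bp1 (0.51 ± 0.32), Rpl21 (1.03 ± 0.80) and Rpl36al (0.25 ± 0.23) were the genes with a positive change and the smallest p, and their adjusted p lay between 0.53 and 0.71. The Rpl21 value rests on Her2/Neu+ 119, where the gene stands at the limit of 6, and is -0.05 without that array.

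The family was not lower on all Her2/Neu+ glands. After each gene was centred on its mean over the 30 arrays, the mean of the 79 genes was -0.01 on Her2/Neu+ 113, -0.50 on 114, -0.15 on 115, 0.15 on 118, -0.89 on 119 and 0.03 on 120. On the other arrays it lay between -0.15 and 0.19 in Her2/Neu+/IFNAR1-/-, between -0.19 and 0.30 in IFNAR1-/- and between -0.14 and 0.29 in WT glands. The number of genes below the lowest WT gland was 46 on Her2/Neu+ 114 and 57 on 119, against 5 to 22 on the other 4 Her2/Neu+ arrays. That is 58.2% and 72.2% of the family, against 22.6% and 17.0% of all genes on the same arrays. The other 4 Her2/Neu+ arrays were not alike. On 115 the share was 27.8% of the family against 12.9% of all genes, and on 113 it was 11.5% against 12.9%. On 118 and 120 the share of the family, 6.33% and 13.9%, was below that of all genes. Arrays 114 and 119 therefore stood apart from all others.

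**Figure D2:**
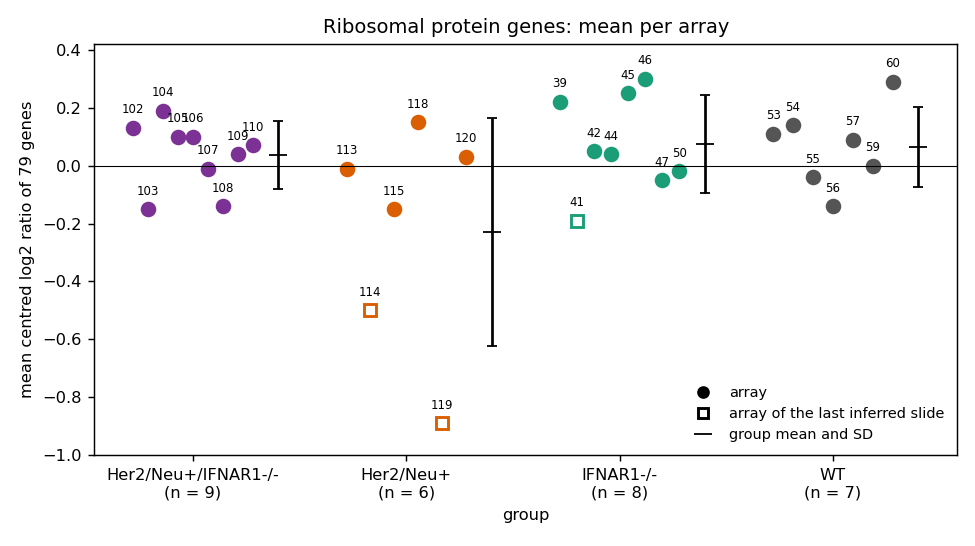
Mean log2 ratio of the 79 ribosomal protein genes on each array, each gene centred on its mean over the 30 arrays, by group; numbers are sample numbers, open squares mark the last inferred slide, and the bar and whiskers give the group mean and SD. Her2/Neu+ 119 at -0.89 and 114 at -0.50 lie below the other 28 arrays, which span -0.19 to 0.30.

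These 2 arrays were on the last of 8 inferred slides, together with IFNAR1-/- 41. The slides and 2 array sets of 15 were inferred from block numbers and sample order and are not given in the labels. On IFNAR1-/- 41 the mean of the family was -0.19, the lowest of its group, and 26 genes (32.9%) lay below the lowest WT gland. Of all genes, 2261 of the 11313 measured on that array did. Arrays on other inferred slides had similar counts, 29 genes (37.2%) on Her2/Neu+/IFNAR1-/- 108 and 24 (30.4%) on Her2/Neu+/IFNAR1-/- 103. The shares of all genes on these arrays were 12.3% and 12.4%. These counts do not say which genes were low. Of the 26 genes on IFNAR1-/- 41, all but Rpl23, Rpl35, Rps15a and Rps23rg1 also lay below the WT range on both Her2/Neu+ 114 and 119. The same overlap was not counted for all genes, and the part of the slide was not tested. No slide holds both groups of a pairwise comparison, so slide and genotype cannot be told apart. Without Her2/Neu+ 114 and 119, 2 of 79 genes (2.53%) were lower in Her2/Neu+ than in WT glands at an unadjusted p under 0.05, against 4.54% of all genes in that fit. Rps14 then differed by -0.53 ± 0.22 (adjusted p = 0.498), Rpl37a by -0.42 ± 0.22 (0.628), Rpsa by -0.28 ± 0.20 (0.752) and Rpl24 by -0.23 ± 0.16 (0.750). In array set 1, which holds the other 4 Her2/Neu+ arrays, the median was 0.02 and 0% of all genes and of the 79 passed.

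On both arrays the low values reached most of the family. A count of 44 genes lay below the WT range on both arrays, 2 on 114 alone, 13 on 119 alone and 20 on neither. The 44 are 55.7% of the family, and 1292 of the 10777 genes measured on both arrays lay below the WT range on both. The value on 119 was below that on 114 for 59 of 79 genes. On 114, 24 of the 41 large subunit genes and 17 of the 25 small subunit genes were below the WT range, and on 119, 29 and 21.

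The largest departures were several times those of the family. On Her2/Neu+ 119 the large subunit genes Rpl15, Rpl35a and Rpl3 lay 3.35, 3.13 and 3.02 below the WT mean on the log2 scale, and the small subunit genes Rps27, Rps4x and Rps7 lay 2.99, 2.70 and 2.65 below it. Rps4l, at -0.03 on 119 against 4.09 or more on the other 5 Her2/Neu+ arrays, had the lowest departure of the 79 genes, -4.96, while Rpl21 stood at the upper limit there. On Her2/Neu+ 114 the largest were Rps24 (-2.03), Rps3a3 (-2.03), Rps25 (-1.88), Rpl5 (-1.85) and Rpl3 (-1.80). Rpl3 lines the peptidyl transferase centre, and Rpl5, with Rpl11 and the 5S RNA, can bind and inhibit Mdm2.

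Genes below the WT range on neither array included Rpl13a, Rpl23a, Rpl27a, Rpl30, Rpl34, Rpl37, Rpl4, Rplp1, Rps15, Rps26 and Rps28. Rpl27a, the gene with the longest pyrimidine run printed above, stood at -0.24 on 114 and -0.61 on 119, against -0.77 to -0.32 in WT glands. Rps21 stood at 0.79 and 0.00, against -0.37 to 0.27 in WT glands. The only gene above the WT range on both arrays was Rps19bp1, at -0.23 and 0.65 against a highest WT value of -0.52.

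Genes with and without a pyrimidine run were both low on these arrays. The median departure from the WT mean on Her2/Neu+ 119 was -1.24 over the 30 large subunit, small subunit and stalk genes with a run in a window and -0.94 over the 25 with a window and no run. On 114 the medians were -0.89 and -0.61. Rpl37a, Rpsa and Rpl24, which have no run in their window, were among the genes with the smallest p in the comparison. In WT glands the median level was -0.58 with a run and -0.47 without.

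**Figure D3:**
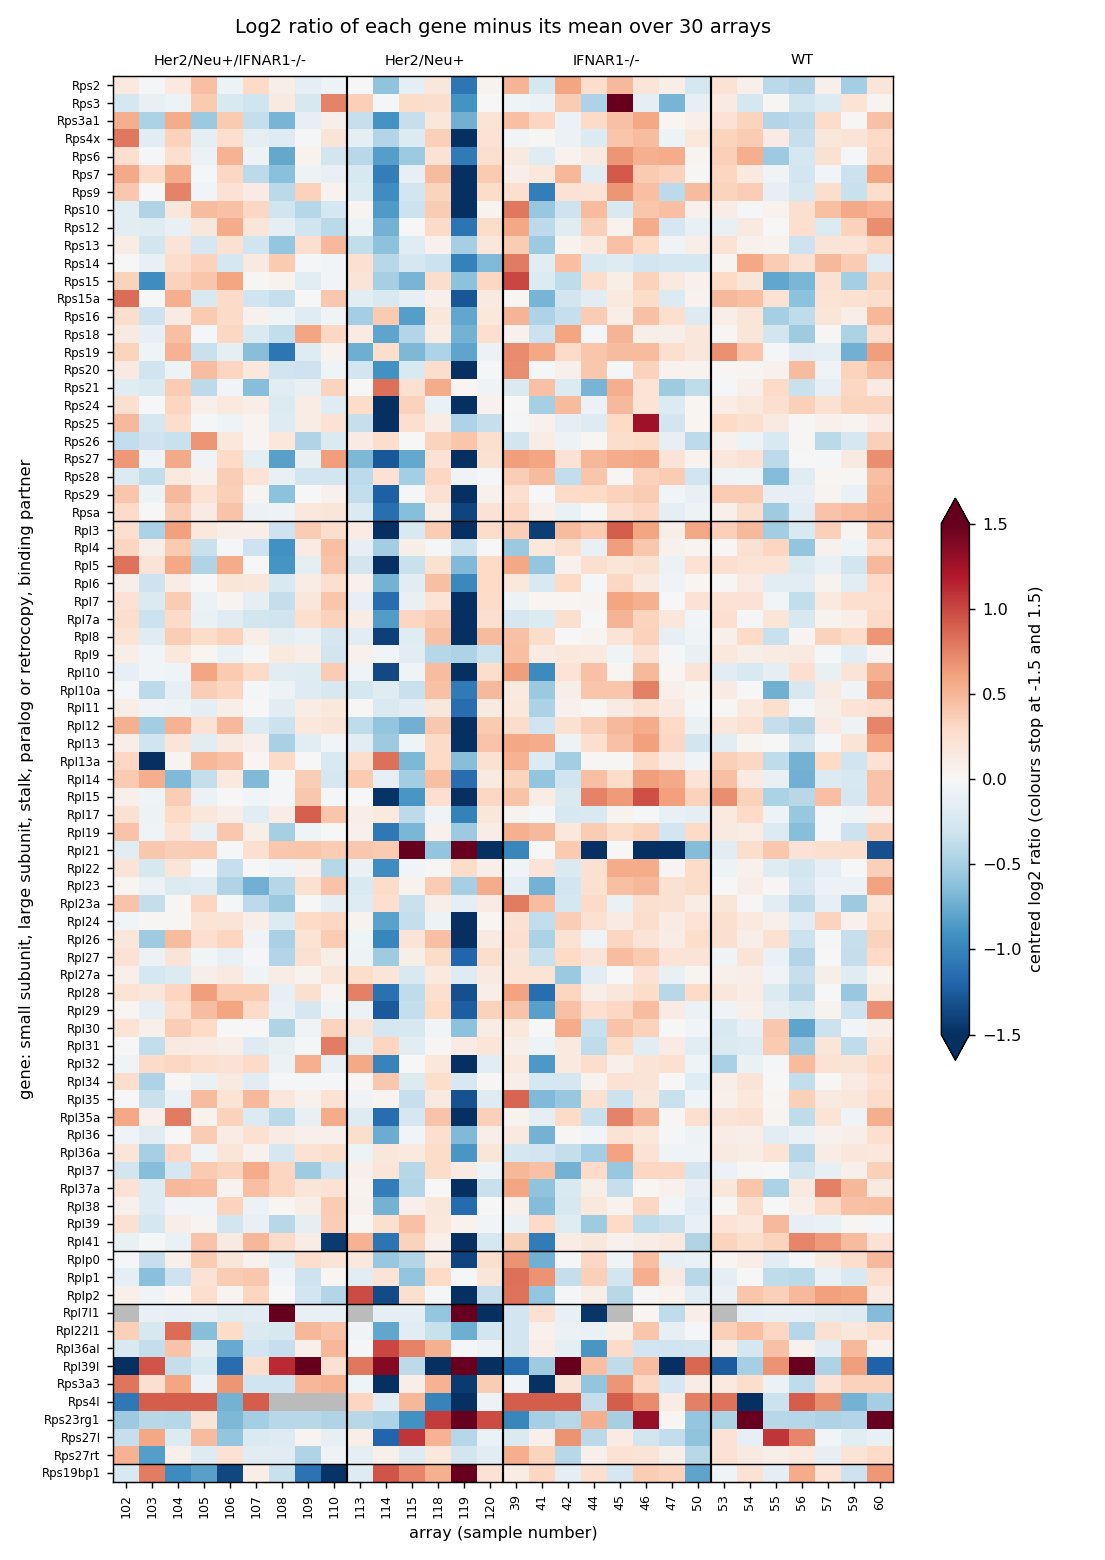
Log2 ratio of each of the 79 genes (rows, by role) on each of the 30 arrays (columns, by group) after subtracting the gene's mean over all arrays; colours stop at 1.5 in either direction and grey is blank. The columns of Her2/Neu+ 114 and 119 are low for most rows, with Rps19bp1 high in both, and no other column is low throughout.

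Other quantities moved on these arrays, and their part in the low values was not tested. Genes of the proliferation list averaged 2.11 on 114 and 0.27 on 119 after the same centring, B cell genes 2.73 and 0.17, plasma cell genes 2.59 and 0.27, and luminal genes -1.95 and 0.21. Basal genes averaged -1.76 and 0.15, and milk and secretory genes 0.16 and -0.57. For the proliferation list, WT glands spanned -0.79 to 0.21. The mean of all genes was 0.12 on both arrays. Repeated values made up 49.3% and 49.9% of the values of these arrays, within a span of 13.1% to 52.0% over the Her2/Neu+ arrays. The weights that limma estimated for the arrays were 0.225 and 0.324, the lowest of the 30, followed by 0.474 for IFNAR1-/- 41.

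The 67 probed genes with ribosomal protein pseudogene symbols, whose probes can bind the parent mRNAs, had a mean of -0.41 on 114 and -0.96 on 119. Genes of the list of TOP translation factors and other TOP mRNAs had means of -0.40 and -0.69. Genes of the ribosome biogenesis list, whose products assemble ribosomes, had means of 0.64 and 0.20. On both arrays the pseudogene probes and the TOP list were thus low on average together with the family, and the biogenesis list was not.

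In array set 2 the Her2/Neu+ group consists of 114 and 119 alone. There 25 of the 79 genes (31.6%) fell in Her2/Neu+ minus WT at an adjusted p under 0.05, against 6.51% of all genes, and none rose. The median change was -0.90. Rpl15 fell by 2.85 ± 0.42 (SE, limma, adjusted p = 9.21e-04), Rps24 by 1.84 ± 0.27 (9.22e-04), Rpl8 by 2.07 ± 0.31 (0.00101) and Rpsa by 1.52 ± 0.27 (0.00387). The group, the slide and these 2 glands cannot be told apart in that fit.

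Receptor loss on top of the oncogene, Her2/Neu+/IFNAR1-/- minus Her2/Neu+, gave the mirror image, with the same Her2/Neu+ arrays on the other side. The change was above 0 for 62 of 79 genes, with a median of 0.32 against 0.11 for all genes. At an unadjusted p under 0.05, 20 (25.3%) were higher and 3 (3.80%) lower, against 6.99% and 4.18% of all genes, and 0.0785% of all genes passed the adjusted threshold. Without Her2/Neu+ 114 and 119 the median was 0.03, and without 119 alone it was 0.17. In array set 1 it was -0.01, with 0.00932% of all genes and none of the 79 past the threshold. In set 2 it was 0.84, with 30 of the 79 genes higher and Rps19bp1 lower past the threshold (39.2% together, against 7.89% of all genes).

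Rpl37a lay at 0.33, 0.74 and 1.01 in Her2/Neu+/IFNAR1-/- glands, against the Her2/Neu+ values given above, a change of 0.79 ± 0.23 (limma, adjusted p = 0.207). Rpsa lay at -0.53, -0.28 and -0.01, a change of 0.66 ± 0.21 (adjusted p = 0.268). The Her2/Neu+/IFNAR1-/- values of both genes lay close together, with an SD of 0.22 and 0.19, against 0.62 and 0.66 in Her2/Neu+ glands. Rps27, a zinc finger protein of the small subunit, lay at -0.85, -0.09 and 0.61 in Her2/Neu+/IFNAR1-/- glands, against -2.91, -0.76 and 0.19 in Her2/Neu+ glands, with a change of 0.96 ± 0.32 (adjusted p = 0.280). Rpl24 had a change of 0.60 ± 0.21 (adjusted p = 0.298). Without Her2/Neu+ 114 and 119 the changes were 0.43 for Rpl37a, 0.28 for Rpsa, 0.35 for Rps27 and 0.19 for Rpl24, and without 119 alone Rps27 had 0.56 and Rpl24 0.33.

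Rps19bp1 had the smallest p of the 79 genes in any comparison, in the opposite direction. Its protein, also called AROS, binds Rps19 and the deacetylase SIRT1, and has a part in small subunit assembly. It lay at -2.64, -1.98 and -0.40 in Her2/Neu+/IFNAR1-/- glands, against -1.36, -0.54 and 0.65 in Her2/Neu+ glands. The change was -1.27 ± 0.31, or 2.42-fold lower (95% interval -1.90 to -0.65, limma, adjusted p = 0.115). In IFNAR1-/- glands it lay at -1.96, -1.0 and -0.80 and in WT glands at -1.48, -0.96 and -0.52. Of the 9 Her2/Neu+/IFNAR1-/- glands, 103 stood alone above -1.0, and without it the change was -1.44 (adjusted p = 0.0279). Without Her2/Neu+ 113 it was -1.45 (0.0431), while without Her2/Neu+ 114 and 119 it was -0.92 ± 0.32 (0.436). One probe measures this gene.

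Rps19 itself, a small subunit protein whose gene is mutated in Diamond-Blackfan anaemia in humans, is the binding partner of that protein. It lay at -2.09, -1.14 and -0.48 in Her2/Neu+/IFNAR1-/- glands, -1.80, -1.57 and -0.74 in Her2/Neu+ glands, -0.83, -0.56 and -0.30 in IFNAR1-/- glands and -1.73, -1.02 and -0.32 in WT glands. The IFNAR1-/- glands were the highest and the least spread, with an SD of 0.18 against 0.42 to 0.51 in the other 3 groups. Its change was 0.24 ± 0.23 in Her2/Neu+/IFNAR1-/- minus Her2/Neu+ (limma, adjusted p = 0.680), where Rps19bp1 had the opposite sign, and -0.59 ± 0.22 in Her2/Neu+/IFNAR1-/- minus IFNAR1-/- (adjusted p = 0.140), where Rps19bp1 had the same sign.

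**Figure D4:**
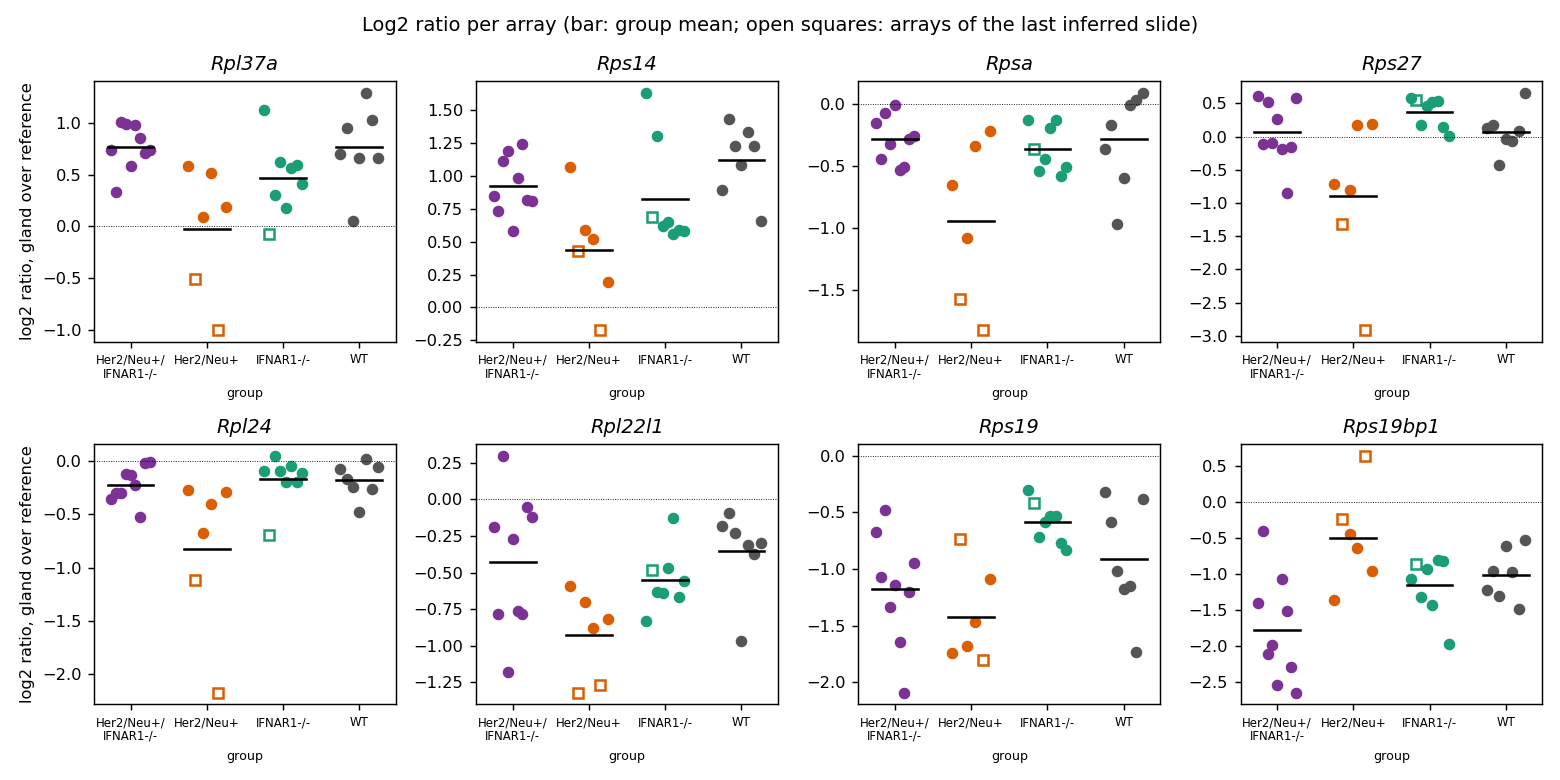
Log2 ratio of gland over reference for 8 genes on every array, by group; points are glands, open squares the glands on the last inferred slide, and bars group means. In Rpl37a, Rpsa, Rps27 and Rpl24 the lowest points are Her2/Neu+ glands on that slide, while in Rps19bp1 the 5 lowest points are Her2/Neu+/IFNAR1-/- glands.

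The other genes with a negative change in this comparison were Rpl36al (-0.48 ± 0.21, adjusted p = 0.408), the retrocopy Rps23rg1 (-0.99 ± 0.48, 0.444) and Rps21 (-0.38 ± 0.21, 0.489). The Rps23rg1 probe is the one with 66.7% repeated values. Rpl22l1 changed by 0.51 ± 0.20 (limma, adjusted p = 0.348), with 0.04 ± 0.18 (0.946) for Rpl22.

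With the oncogene added to receptor loss, Her2/Neu+/IFNAR1-/- minus IFNAR1-/-, the family differed little. The median change was -0.05 against 0.15 for all genes, and 50 of 79 changes were below 0. At an unadjusted p under 0.05, 0 genes were higher and 2 (2.53%) lower, Rps19 and Rps19bp1, against 13.5% and 4.96% of all genes. This comparison had the most calls among all genes, 1.31% by the adjusted test. The 95% interval lay within 2-fold in both directions for 70 of the 79 genes (88.6%), against 41.9% of all genes. Rps19bp1 changed by -0.62 ± 0.28 (limma, adjusted p = 0.231), Rpl23a by -0.30 ± 0.17 (0.343) and Rpl22 by -0.27 ± 0.16 (0.383). The positive changes with the smallest p were Rpl21 (1.32 ± 0.70), Rpl17 (0.30 ± 0.17), Rpl37a (0.31 ± 0.21) and Rps3a3 (0.43 ± 0.30), with adjusted p of 0.305 to 0.464.

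Receptor loss without the oncogene, IFNAR1-/- minus WT, left the smallest differences. The median change was 0.03 against -0.08 for all genes, with 46 genes higher and 33 lower. At an unadjusted p under 0.05, 0 of the 79 were higher and 0 lower, against 2.88% and 3.99% of all genes, and 0.0262% passed the adjusted test. The 95% interval lay within 2-fold for 72 of the 79 genes (91.1%), against 43.9% of all genes. The smallest p belonged to Rpl23a (0.34 ± 0.18, limma, adjusted p = 0.760), followed among positive changes by Rpl19 (0.36 ± 0.20), Rps2 (0.31 ± 0.19) and Rplp1 (0.33 ± 0.21). The negative ones were Rpl41 (-0.50 ± 0.30), Rpl36al (-0.33 ± 0.21), Rps14 (-0.30 ± 0.19) and Rpl38 (-0.28 ± 0.19), with adjusted p of 0.784 to 0.807.

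**Figure D5:**
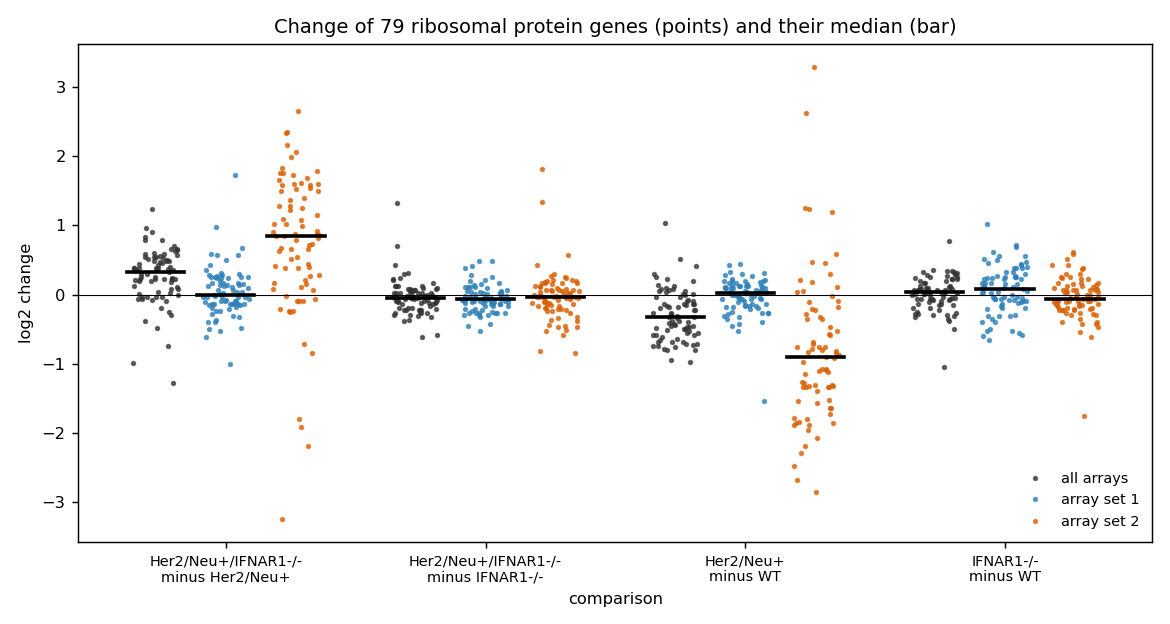
Log2 change of each of the 79 genes in the 4 pairwise comparisons, for all 30 arrays, array set 1 and array set 2; bars are medians. With Her2/Neu+ on one side the medians are -0.32 and 0.32 over all arrays, 0.02 and -0.01 in set 1 and -0.90 and 0.84 in set 2, while the other comparisons stay between -0.07 and 0.08.

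The interaction had a median of 0.29 against 0.18 for all genes, with 57 genes above 0 and 22 below. At an unadjusted p under 0.05, 8 (10.1%) were above and 1 (1.27%) below, against 6.86% and 2.77% of all genes, and 0.0174% passed the adjusted test. The genes with the smallest p were Rpl37a (1.09 ± 0.32, limma, adjusted p = 0.432), Rps14 (0.78 ± 0.28, 0.483), Rpl22l1 (0.71 ± 0.28, 0.483) and Rpsa (0.74 ± 0.30, 0.483). Rps19bp1 (-1.13 ± 0.43, 0.483), Rpl23a (-0.38 ± 0.26, 0.590), Rps26 (-0.35 ± 0.24, 0.606) and Rplp1 (-0.36 ± 0.30, 0.667) had negative values. Without Her2/Neu+ 114 and 119 the median was -0.02, without 119 alone 0.12, and under quantile normalization 0.01. In set 1 it was -0.05, with 0% of all genes called, and in set 2 0.89, with 14 of the 79 genes called (17.7%, against 4.22% of all genes).

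The remaining genes with known separate roles had these changes in Her2/Neu+ minus WT, none of which passed the test. Rps6, the substrate of the S6 kinases, had -0.48 ± 0.24. Rpl5 had -0.50 ± 0.29 and Rpl11 -0.33 ± 0.18. The stalk genes, whose proteins recruit elongation factors, had -0.43 ± 0.23 for Rplp0, 0.13 ± 0.22 for Rplp1 and -0.73 ± 0.30 for Rplp2. Rplp2 lay at -1.2, 0.36 and 1.51 in Her2/Neu+ glands, against 0.43, 0.95 and 1.15 in WT glands, so the Her2/Neu+ glands held both the lowest and the highest value. Rpl3 had -0.80 ± 0.40, Rps4x -0.62 ± 0.30, Rps27 -0.97 ± 0.34, Rpl39 0.06 ± 0.17, Rpl39l -0.04 ± 0.70, Rpl36a -0.10 ± 0.20 and Rps27l -0.23 ± 0.29. Most of these values rested on Her2/Neu+ 114 and 119. Without them the change was -0.21 for Rps6, -0.10 for Rpl5, -0.09 for Rpl11, -0.09 for Rplp0, -0.14 for Rplp2, 0.01 for Rpl3, -0.11 for Rps4x and -0.36 for Rps27.

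Different probes of a gene often disagreed in sign. Of the 48 genes with several probes, all probes had 1 sign in 27 in Her2/Neu+ minus WT, in 23 in Her2/Neu+/IFNAR1-/- minus Her2/Neu+, in 17 in Her2/Neu+/IFNAR1-/- minus IFNAR1-/- and in 24 in IFNAR1-/- minus WT. Of the 167 probes, 118 were lower in Her2/Neu+ than in WT glands, and 0 passed when tested one by one. Such probes can also bind mRNAs of near-identical retrocopies, so single ribosomal protein genes are uncertain.

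The genes that make or regulate ribosomes were measured beside the family, from lists of 21 TOP translation factors and other TOP mRNAs, 49 ribosome biogenesis and RNA polymerase I genes and 17 regulators of mTOR, S6 kinase and Myc. In Her2/Neu+ minus WT, 0 genes of the 3 lists passed, and the medians were -0.26 for the TOP list and 0.00 for the biogenesis list. In Her2/Neu+/IFNAR1-/- minus Her2/Neu+ they were 0.37 and 0.00, with 0 calls. The 67 pseudogene symbols had medians of -0.24 and 0.30 in these comparisons.

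Over all 5 comparisons 1 gene of the 3 lists passed, the nucleolar GTPase Gnl3 (nucleostemin), which rose by 1.51 ± 0.39 in Her2/Neu+/IFNAR1-/- minus IFNAR1-/- (limma, adjusted p = 0.0489). That is 1 of the 49 biogenesis genes, 0 of the 21 TOP genes and 0 of the 17 regulators, where 1.31% of all genes passed. The lists thus do not stand out from all genes there. In the same comparison the replication helicase Mcm2 of the proliferation list rose by 1.78 ± 0.45 (0.0424), the basal keratin Krt14 fell by 2.47 ± 0.59 (0.0413) and the milk protein gene Lalba rose by 4.64 ± 0.52 (1.97e-04). Their lists were mixed in sign. Of 10 proliferation genes 6 were higher and 4 lower, of 7 basal genes 2 and 5, and of 5 milk and secretory genes 4 and 1. At an unadjusted p under 0.05 (limma) the counts were 5 and 0, 1 and 2, and 2 and 0 in the same order. Lalba also rose in Her2/Neu+ minus WT, by 5.86 ± 0.54 (8.09e-06). The milk and secretory list did not rise as a whole there, with 3 of its 5 genes higher and 2 lower. At an unadjusted p under 0.05 (limma), 1 of the 5 was higher and 2 were lower. The part of all these genes in the ribosomal protein values was not tested. Among TOP mRNAs, the smallest p in Her2/Neu+ minus WT belonged to the initiation factor Eif3l (-1.36 ± 0.44, adjusted p = 0.178), and in Her2/Neu+/IFNAR1-/- minus Her2/Neu+ to the poly(A)-binding protein Pabpc1 (0.59 ± 0.22, 0.324).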

How the data were processed

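RNA of 30 mammary glands was co-hybridised with Stratagene universal mouse reference RNA on 2-colour Agilent arrays, per the labels' protocols. The authors deposited 1 table of log2 ratios for 20896 probes. The base was inferred from the values and the direction (gland Cy5 over reference Cy3) from the dyes; scanner settings, background correction and normalization are not given in the sources used here. A gene symbol came from the platform annotation (17376 probes with 1 symbol, 3520 with none). Probes measured on 50% or more of the arrays in each group were kept (16247) and averaged per gene, giving 11463 genes, without further scaling.

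Contrasts of 4 group means were fitted over all 30 arrays with limma 3.58.1 (lmFit, eBayes) in R 4.3.3, two-sided, with Benjamini-Hochberg adjustment over all genes and a threshold of 0.05. The fit was tested on simulated data. Errors of changes are SE. The labels number separate glands, so p-values reflect only how far these samples vary. The ribosomal protein genes, marker lists and gene lists were chosen with earlier results of these data known. Named genes are, in each contrast, the 4 higher and the 4 lower members with the smallest p, extremes of level and spread, and preset members with known roles. Genes of array set 2, of Her2/Neu+ 114 and 119 and of the shared values were named after their values were seen. Alternatives covered normalization, probe filters, repeated values, the choice of probe, groups in the fit, array weights, variance trend, slide, array set, array position and leaving out each array. A further 4 were chosen after seeing the data. Promoter windows came from RefSeq (GRCm38.p6).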

Additional observations from a re-analysis of the deposited data

Results flagged for a closer look

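A gland far from the others of its group was looked for in 40 quantities in each of the 4 groups, 160 checks in all, of which chance flags about 5%. It was found 20 times. No explanation was weighed.

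Her2/Neu+ 119 was far below its group for Rpl11 (-1.40, next -0.48), Rps4x (-3.31, next -1.22), Rpl36a (-1.81, next -1.01) and the transcribed pseudogene Rps4l (-0.03, next 4.09), and Her2/Neu+ 114 for Rpl22 (-1.52, next -0.69). IFNAR1-/- 41, on the same inferred slide, was far below its group for Rpl11 (-0.74, next -0.29), Rpl3 (-2.70, next -1.2) and Rpl24 (-0.69, next -0.20). The mean of the 79 genes was not flagged in any group.

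WT 56 was far below the other WT glands for 5 genes, Rpl22l1 (-0.97), Rps4x (-1.12), Rpl36a (-1.36), Rpl17 (-1.29) and Rpl34 (-0.38), and its mean over the 79 genes was -0.14, the lowest of the WT glands. Rpl19 stood at -1.21 on IFNAR1-/- 47 (next -0.76), and Rpl41 at -0.99 on Her2/Neu+/IFNAR1-/- 110 (next 0.33).

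The remaining flags concern the 3 genes with mostly repeated values. Rpl7l1 stood at 4.44 on Her2/Neu+/IFNAR1-/- 108, -1.36 on IFNAR1-/- 44 and -0.55 on WT 60, Rps23rg1 at 0.60 on Her2/Neu+/IFNAR1-/- 105, and Rpl21 at -1.73 on WT 60.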

How the results depend on the processing

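No paired analysis was possible because the sample numbers in the labels are unique and no number is shared between groups. The count of ribosomal protein genes past the threshold stayed at 0 in all 5 comparisons under every alternative except array set 2 alone, with 14 in the interaction, 25 for Her2/Neu+ less WT and 31 for Her2/Neu+/IFNAR1-/- less Her2/Neu+ glands, and 2 fits that leave out 1 array. Leaving out 1 array gave 0 to 1 in Her2/Neu+/IFNAR1-/- minus Her2/Neu+ (Rps19bp1 without Her2/Neu+/IFNAR1-/- 103 or Her2/Neu+ 113). The median change in Her2/Neu+ minus WT was -0.10 with array weights, 0.02 in set 1, -0.90 in set 2, -0.03 without Her2/Neu+ 114 and 119 and -0.03 without the last inferred slide. For Her2/Neu+/IFNAR1-/- minus Her2/Neu+ it was 0.09, -0.01, 0.84, 0.03 and 0.03 in the same order, and in the interaction 0.06, -0.05, 0.89, -0.02 and -0.05, with 0.01 under quantile normalization. Leaving out 1 array gave medians of -0.41 to -0.17, 0.17 to 0.40 and 0.12 to 0.36 in these 3 comparisons, -0.10 to -0.02 in Her2/Neu+/IFNAR1-/- minus IFNAR1-/- and -0.02 to 0.07 in IFNAR1-/- minus WT. The sign of Rplp1 in IFNAR1-/- minus WT turned in set 1 (-0.16). That of Rpl21 in Her2/Neu+ minus WT turned with array weights (-0.15), in set 1 (-0.07), without Her2/Neu+ 119 (-0.05), without 114 and 119 (-0.16) and without the last slide (-0.16), and lay between -0.05 and 1.71 when 1 array was left out. The cause was not tested beyond the arrays left out.

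Without the 8 arrays on which ribosomal protein values were gathered at 1 value, the median in the interaction was 0.35. It was -0.43 for Her2/Neu+ less WT and 0.40 for Her2/Neu+/IFNAR1-/- less Her2/Neu+ glands, with 0 genes past the threshold. Rps14, Rpl37a and Rpsa in Her2/Neu+ minus WT were -0.70, -0.89 and -0.84. In that fit the Her2/Neu+ group holds only 113, 115 and 119, and 119 is the array where the family was lowest. These values therefore do not separate the shared value from the changed make-up of the group. Quantile normalization moved the median of all genes by -0.11 in Her2/Neu+/IFNAR1-/- minus IFNAR1-/- and by -0.13 in the interaction. Over the alternatives the number of all genes called was 0 to 750 in Her2/Neu+ minus WT (15 in the fit reported), 1 to 908 in Her2/Neu+/IFNAR1-/- minus Her2/Neu+ (9), 0 to 663 in Her2/Neu+/IFNAR1-/- minus IFNAR1-/- (150), 0 to 55 in IFNAR1-/- minus WT (3) and 0 to 486 in the interaction (2). Signal over background is unknown, so dim probes could not be set apart, and slide and genotype cannot be told apart.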
